A study of Homo sapiens with 27 samples.

Results

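The genes described are 10 immediate early transcription regulators, taken by symbol from a table of raw counts for 61533 genes: the FOS family (*FOS*, *FOSB*, *FOSL1* and *FOSL2*), the JUN family (*JUN*, *JUNB* and *JUND*), *ATF3*, *EGR1* and *IER2*. All 10 were found once in the table. They were measured by bulk mRNA sequencing in 92.1 cells, an established uveal melanoma (UM) line that carries a *GNAQ* mutation. Uveal melanoma is a cancer of the melanocytes of the eye. The cells were kept either in the vehicle DMSO or in 100 nM of the focal adhesion kinase (FAK) inhibitor VS-4718 (FAKi). RNA came from DMSO cultures on days 0, 3, 7, 14 and 21 and from FAKi cultures on days 3, 7, 14 and 21. That gave 9 groups of 3 libraries, 27 in all. Every group is the same line in RPMI medium with serum, so each result describes 1 line at 1 dose. Medium and agent were renewed every 72 h in both arms. How long before each harvest the last renewal took place is not given in the sources used here.

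AP-1 is a dimeric transcription factor built from proteins with a basic leucine zipper. FOS proteins pair with JUN proteins, JUN proteins also pair with one another, and ATF3, a stress-induced member of the ATF/CREB family, can join JUN proteins. EGR1 is a zinc finger transcription factor, and IER2 is a nuclear protein of the same early response. The genes of most of these proteins are switched on within minutes by growth factors, serum or stress, without new protein synthesis, and their transcripts are short-lived. FAK, the product of *PTK2*, is a tyrosine kinase of integrin adhesions that passes signals to the ERK and JNK kinases, and mutant *GNAQ* activates FAK and protein kinase C in uveal melanoma. *PTK2* RNA itself did not pass the test on any day, and its log2 difference lay between -0.06 at day 7 and 0.13 at day 21 in edgeR's quasi-likelihood test, which is no measure of kinase activity.

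The libraries held 12161994 to 43651551 counts, with a median of 24759579, and the 10 genes together took 0.0169% to 0.04999% of them. All 8 melanocyte lineage markers were present at a mean of at least 1 CPM, the count per 1000000 counts of a library. Of the markers of other cell types, 4 of 6 fibroblast, 4 of 6 epithelial, all 5 immune and all 4 endothelial genes were below that level. The summed level of the epithelial markers, most of it *KRT18*, ran from 36.3 to 52.8 CPM in DMSO and from 12.2 to 14.7 CPM in FAKi at day 21. At day 3 it was 24.3 to 38.1 CPM in DMSO and 16.4 to 18.3 CPM in FAKi, at day 7 25.4 to 30.3 and 5.92 to 21.1 CPM, and at day 14 8.49 to 11.5 and 5.96 to 8.75 CPM. At day 0 it was 22.7 to 27.8 CPM, while *KRT5* had 0 counts in every library. The summed melanocyte markers were at 9467 to 10230 CPM in DMSO and 12350 to 12860 CPM in FAKi at day 14, and at 11970 to 14170 and 15170 to 15550 CPM at day 21. Mitochondrial genes took 5.49% to 26.97% of counts. Over 16981 genes, 9 libraries were nearest in expression to a library of another group. DMSO day 3 replicate 1, FAKi day 7 replicate 1 and DMSO day 21 replicate 3 stood farthest from the other libraries of their groups, and the comparisons of their days are given with and without them. They were nearest to DMSO day 0 replicate 3, FAKi day 14 replicate 1 and DMSO day 3 replicate 3. The column name of the last of the 3 joins the day numbers 7 and 21, and its title was followed. Whether a library carries the label of another was not tested, and the values of days 3, 7 and 21 hold only as far as these labels do. The part that these features play in the results was not tested.

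Levels are given as CPM scaled by TMM over the 27 libraries, and levels of different genes are compared only per kilobase of the counted transcript. On that scale *JUND*, the JUN family member known for steady expression, was highest at 74.7 ± 37.8 CPM per kb (SD, n = 27 libraries). *IER2* followed at 19.9 ± 7.26, *JUNB* at 14.7 ± 3.92, *ATF3* at 14.0 ± 5.56 and *JUN* at 8.34 ± 2.53 CPM per kb. *EGR1* stood at 4.36 ± 2.61 and *FOS* at 4.05 ± 1.10 CPM per kb. The other FOS genes were lowest, with *FOSB* at 0.904 ± 0.501, *FOSL1* at 0.852 ± 0.404 and *FOSL2* at 0.797 ± 0.277 CPM per kb. Neighbours in this order that differed by less than the larger of their SDs were *IER2* and *JUNB*, *JUNB* and *ATF3*, *EGR1* and *FOS*, and the other FOS genes among themselves. Within a gene, *EGR1* had the widest span apart from *FOSL1* with its library at 0 counts, from 2.99 to 30.5 CPM, and *JUNB* and *FOSL2* were among the narrowest, from 14.9 to 44.7 and from 3.08 to 9.58 CPM. *JUND* had the widest span of the JUN family here, from 58.1 to 338 CPM. Its highest level was 5.82 times its lowest, against 4.48 for *JUN* and 3.00 for *JUNB*. Most of the low genes rest on few reads: *FOSL1* had 0 to 124 and *FOSB* 24 to 368 counts in a library, against 1491 to 11925 for *JUND*. *JUNB* shares 14.15% of its exon bases with *HOOK2* on the opposite strand, and *IER2* shares 54.81% with 2 noncoding genes on the opposite strand. Counting with regard to strand is not stated, so reads of these overlapping genes cannot be told apart.

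**Figure D1:**
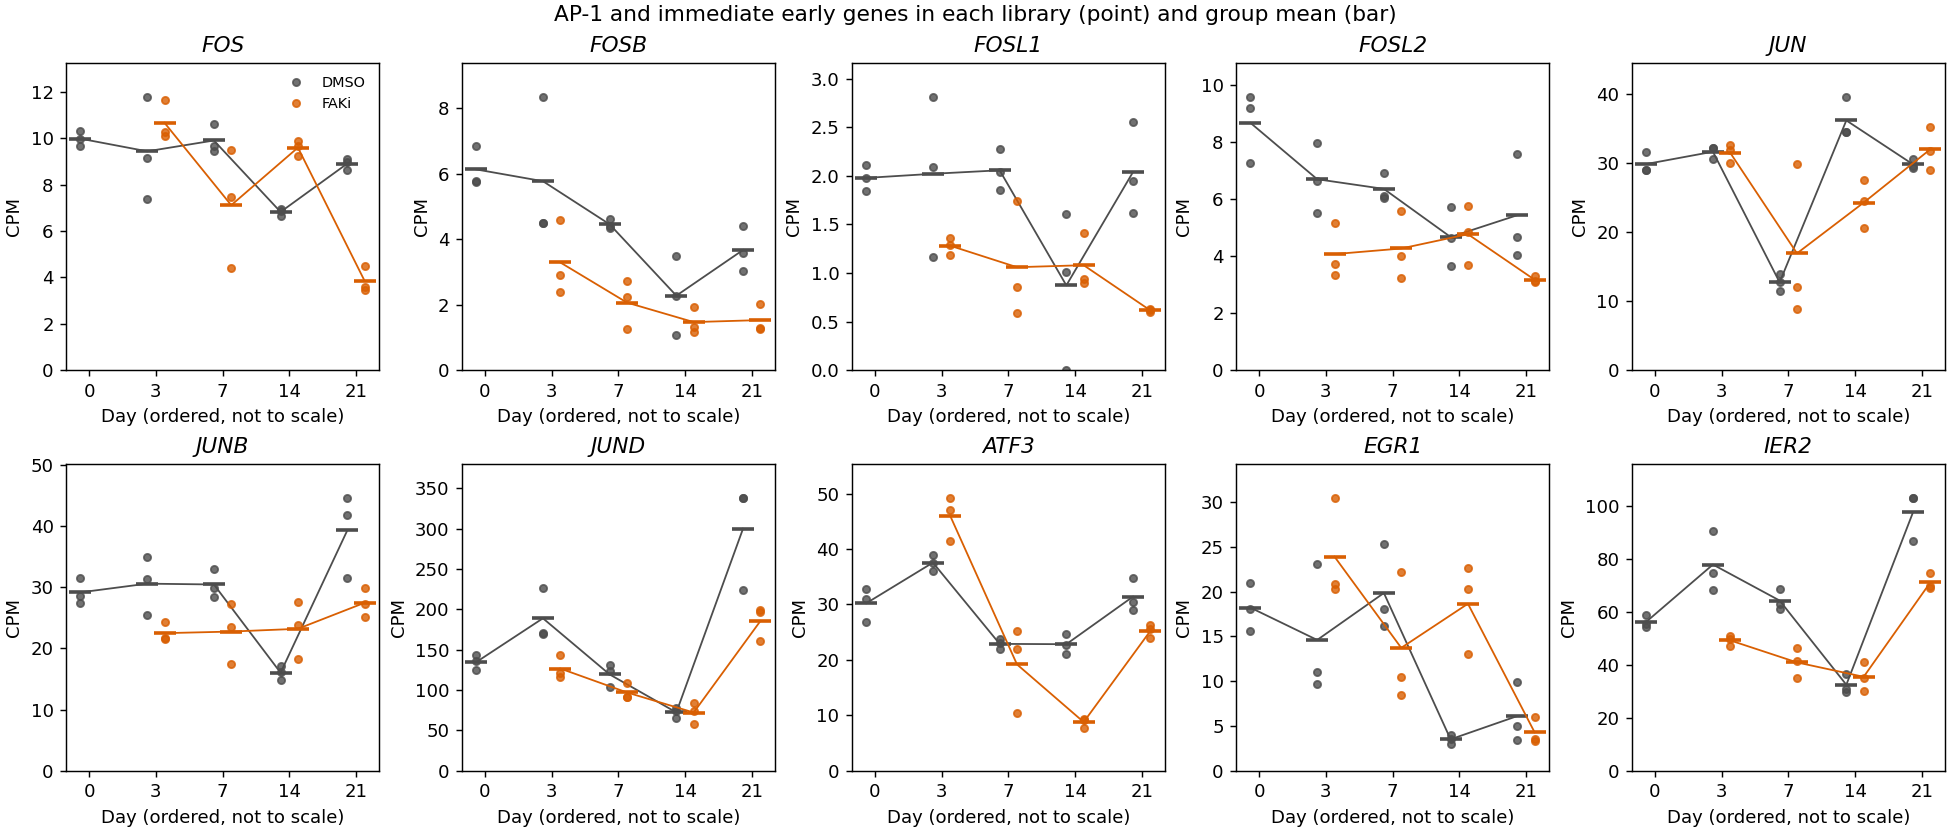
Level of each gene in CPM (y axis, from 0) against day (x axis, ordered but not to scale), with a point for each of the 27 libraries and a bar for the mean of 3; grey is DMSO and orange FAKi. *EGR1* in FAKi lies at 13.004 to 22.6 CPM on day 14 against 2.99 to 3.94 in DMSO, and *FOS* in FAKi lies at 3.46 to 4.48 CPM on day 21 against 8.64 to 9.12 in DMSO.

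The promoters of the genes called in a comparison between 2 groups are shown, all but that of *FOSL1*, for the short motifs that immediate early regulators are known to read. RefSeq windows on GRCh38.p14 were at hand for 9 of the 10 genes, all but *FOSL1*. Each line below gives the 250 bases before a transcription start, 5′ to 3′ on the gene's strand, with matches in capitals. The motifs searched were the CArG box, which binds serum response factor, the CRE TGACGTCA, the variant TGACATCA known to bind JUN and ATF proteins, the AP-1 site TGACTCA, and the CRE core TGACG, all on both strands, and TATAAA on the gene's strand. TGACG on the other strand reads CGTCA, and it lies within TGACGTCA. The windows are *EGR1* at chr5:138465229-138465478 (plus strand), *FOS* at chr14:75278578-75278827 (plus strand), *FOSB* at chr19:45467746-45467995 (plus strand), *JUN* at chr1:58784048-58784297 (minus strand), *JUND* at chr19:18281623-18281872 (minus strand) and *ATF3* at chr1:212565157-212565406 (plus strand).
EGR1: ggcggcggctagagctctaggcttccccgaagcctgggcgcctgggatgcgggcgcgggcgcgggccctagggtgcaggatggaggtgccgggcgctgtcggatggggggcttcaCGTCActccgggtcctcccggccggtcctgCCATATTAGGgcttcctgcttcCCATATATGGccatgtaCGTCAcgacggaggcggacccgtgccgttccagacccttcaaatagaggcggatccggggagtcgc
FOS: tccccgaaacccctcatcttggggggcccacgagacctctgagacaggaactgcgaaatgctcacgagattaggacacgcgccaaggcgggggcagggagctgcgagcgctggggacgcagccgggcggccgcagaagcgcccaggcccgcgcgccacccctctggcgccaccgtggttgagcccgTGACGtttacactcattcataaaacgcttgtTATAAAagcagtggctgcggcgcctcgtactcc
FOSB: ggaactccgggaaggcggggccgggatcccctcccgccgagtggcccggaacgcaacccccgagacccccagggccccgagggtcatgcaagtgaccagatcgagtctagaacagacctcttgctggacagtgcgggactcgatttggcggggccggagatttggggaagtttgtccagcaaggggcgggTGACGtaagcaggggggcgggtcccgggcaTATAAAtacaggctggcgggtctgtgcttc
JUN: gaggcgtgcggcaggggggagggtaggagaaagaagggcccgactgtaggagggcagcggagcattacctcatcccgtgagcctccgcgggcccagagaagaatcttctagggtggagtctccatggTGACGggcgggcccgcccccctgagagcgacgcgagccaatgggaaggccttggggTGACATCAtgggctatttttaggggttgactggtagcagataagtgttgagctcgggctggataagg
JUND: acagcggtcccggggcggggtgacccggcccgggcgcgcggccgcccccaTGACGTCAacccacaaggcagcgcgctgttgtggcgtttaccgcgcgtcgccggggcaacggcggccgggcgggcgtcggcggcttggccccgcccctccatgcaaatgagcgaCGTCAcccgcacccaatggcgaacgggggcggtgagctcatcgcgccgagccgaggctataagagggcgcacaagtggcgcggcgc
ATF3: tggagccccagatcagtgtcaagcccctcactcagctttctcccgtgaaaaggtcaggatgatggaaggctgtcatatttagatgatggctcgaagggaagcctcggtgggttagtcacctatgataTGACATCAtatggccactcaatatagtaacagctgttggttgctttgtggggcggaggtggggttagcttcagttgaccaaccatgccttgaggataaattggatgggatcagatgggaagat

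The *EGR1* window held 2 CArG boxes, CCATATTAGG from base -105 to -96 and CCATATATGG from -83 to -74 counted from the start site. No other of the 9 genes held one in its 250 bases, where 1.16% of 35116 windows did. Bases farther upstream were not searched, so a motif that lies there is missed. TGACG was in 8 of the 9, all but *ATF3*, against 21.2% of all windows. TGACATCA was in *JUN* from -67 to -60 and in *ATF3* from -123 to -116, against 2.37%, and the full CRE in *JUND* from -200 to -193, against 1.65%. TATAAA was in *FOS*, *FOSB*, *JUNB* and a second window of *ATF3*, against 6.80%. None held TGACTCA in these bases, against 4.20%. Neither *ATF3* window, nor that of *IER2*, lies at the start of the transcript that was counted. A match is a run of letters and not a measured site.

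At day 21, 3 of the 4 FOS family genes were called lower in FAKi. These were *FOS*, *FOSB* and *FOSL1*, by 2.26, 2.36 and 3.21-fold, and 9 of the 10 genes had a log2 difference under 0, where 49.2% of all genes did. A call needs an adjusted p of at most 0.05 over all genes tested and an absolute log2 fold change over 1. At that rule 628 of 23212 genes, 2.71%, were called lower and 598, 2.58%, higher. *JUN*, the founding AP-1 member, was the exception in direction. In bulk RNA, fewer cells that express a gene and less of its RNA per cell cannot be told apart.

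*FOS* was at 8.99, 8.64 and 9.12 CPM in the DMSO libraries of day 21 and at 3.61, 3.46 and 4.48 CPM in FAKi. All FAKi libraries were below all DMSO libraries, and together with FAKi day 7 replicate 3, at 4.40 CPM, they held the lowest *FOS* levels of the series. The log2 fold change was -1.18 (SE 0.18) with an adjusted p of 0.0102 (edgeR's quasi-likelihood test, Benjamini-Hochberg over all genes tested, as for every adjusted p given here). *FOSB*, a close relative of *FOS*, was at 3.03, 3.58 and 4.40 CPM in DMSO and 2.02, 1.30 and 1.26 CPM in FAKi. The log2 fold change was -1.24 (SE 0.29, edgeR adjusted p = 0.0337). *FOSL1*, which encodes FRA1, was at 1.62, 2.56 and 1.94 CPM in DMSO and 0.616, 0.595 and 0.632 CPM in FAKi, and changed by -1.68 (SE 0.32, edgeR adjusted p = 0.0195). For both genes the groups did not overlap, but they rest on few counts. *FOSL1* had 57, 45 and 42 counts in DMSO and 14, 11 and 22 in FAKi. *FOSB* had 107, 63 and 95 counts in DMSO and 46, 24 and 44 in FAKi. *FOSL2*, which encodes FRA2, did not pass, with 4.05, 4.66 and 7.59 CPM in DMSO, 3.12, 3.08 and 3.30 CPM in FAKi, a log2 fold change of -0.75 (SE 0.28) and an edgeR adjusted p of 0.104.

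The JUN family differed within itself at day 21. *JUND* was at 338, 337 and 224 CPM in DMSO and 200, 196 and 160 CPM in FAKi. Its log2 fold change of -0.67 (SE 0.18, edgeR adjusted p = 0.0495) passed the p but not the fold threshold, and was -0.34 (SE 0.09, adjusted p = 0.0337) once each library was corrected for the length and GC content of the counted transcripts. *JUNB* was at 44.7, 41.8 and 31.5 CPM in DMSO and 27.2, 30.0 and 25.2 CPM in FAKi, with a log2 difference of -0.49 (SE 0.16, edgeR adjusted p = 0.0726). *JUN* was at 29.2, 29.5 and 30.5 CPM in DMSO and 29.0, 35.1 and 31.7 CPM in FAKi, so its groups overlapped. *IER2* was at 103, 103 and 86.7 CPM in DMSO and 74.6, 69.7 and 69.1 CPM in FAKi, with a log2 difference of -0.43 (SE 0.12, edgeR adjusted p = 0.0534). *ATF3* differed by -0.29 (SE 0.14) and *EGR1* by -0.50 (SE 0.41), neither past the test. Libraries of the same number deviated together at this day, and with the replicate number as a block the edgeR adjusted p was 0.0390 for *FOSL2*, 0.0150 for *JUNB* and 0.0167 for *IER2*, at log2 differences of -0.72, -0.48 and -0.43 under the fold threshold. With the block and the length and GC correction it was 0.0124, 0.111 and 0.0147.

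In 8 of the 10 genes every FAKi library of day 21 was below every DMSO library, where this held for 17.6% of all genes tested. Mitochondrial genes took 5.49%, 5.49% and 9.75% of counts in DMSO and 10.7% to 11.2% in FAKi at this day, so that share moved with the treatment, and its part was not tested. The 3 calls rest on 6 libraries: 0 of them were left without FAKi replicate 1, 2 or 3, where the adjusted p of *FOS* was 0.0562, 0.0772 and 0.0514, and 1, *FOS*, was left without DMSO replicate 2, and 2, *FOS* and *FOSL1*, without DMSO replicate 1. Calls over all genes went from 1226 to 412, 52 and 148 (1.82%, 0.229% and 0.666%) without FAKi replicate 1, 2 and 3, and to 397 and 363 without DMSO replicate 1 and 2. Without DMSO replicate 3, the library that stood apart, all 3 were called, as were 4248 genes in all (18.7%), and the log2 difference of *EGR1* turned from -0.50 to 0.0125. The log2 fold changes kept their direction and an absolute size over 1 in all of these, from -1.31 to -1.11 for *FOS*, from -1.48 to -1.07 for *FOSB* and from -1.85 to -1.50 for *FOSL1*. With the counts thinned to the smallest library, *FOSB* was at -0.98 (edgeR adjusted p = 0.0865).

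**Figure D2:**
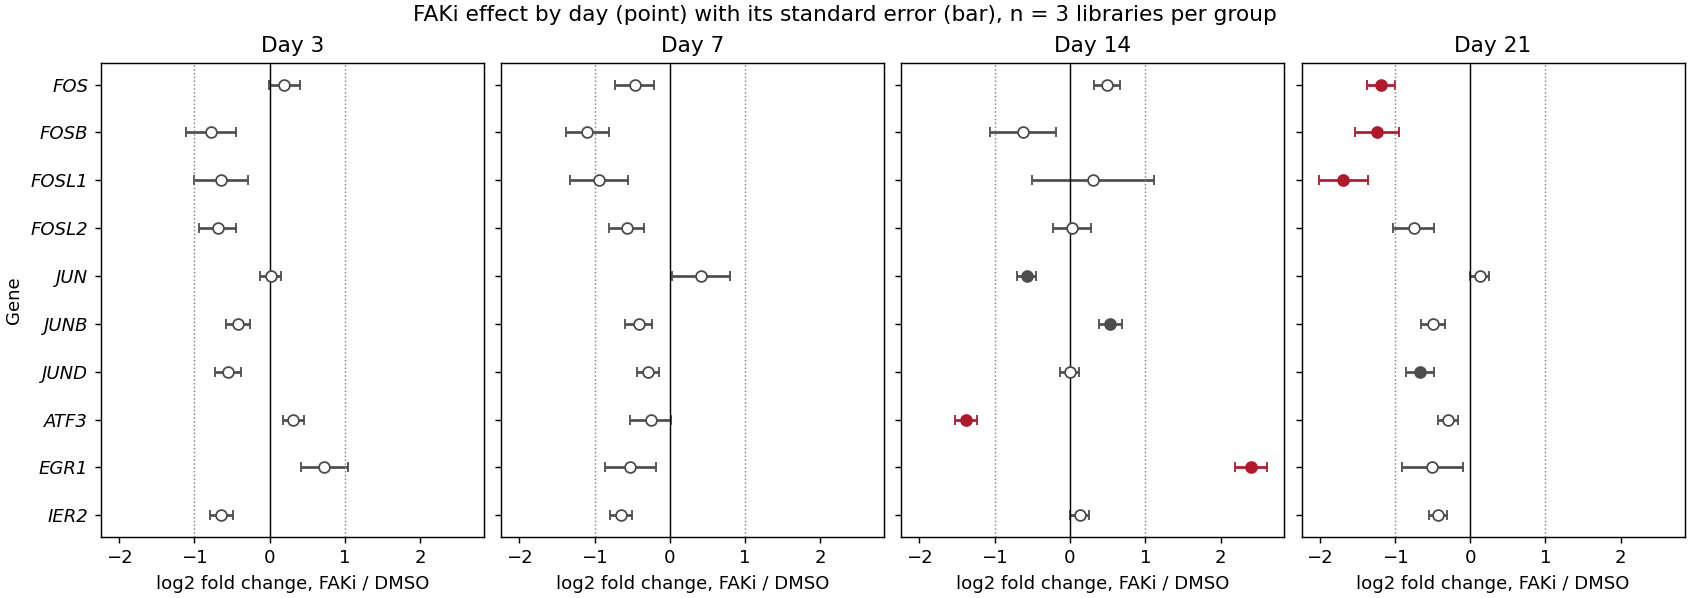
log2 fold change of FAKi over DMSO (x axis) for each gene (y axis) on days 3, 7, 14 and 21, with bars for the standard error, n = 3 libraries per group; red points pass the adjusted p and the fold threshold (dotted lines), filled grey points pass the adjusted p alone, and open points neither. *EGR1* at 2.41 and *ATF3* at -1.38 stand out on day 14, and *FOS*, *FOSB* and *FOSL1* between -1.68 and -1.18 on day 21.

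At day 14 *EGR1* was called higher in FAKi, by 5.31-fold, and *ATF3* lower, by 2.60-fold. Of 23443 genes tested, 144, 0.614%, were called higher and 244, 1.04%, lower. No FOS or JUN family gene was called, although *JUN* and *JUNB* passed the adjusted p with smaller changes of opposite sign.

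*EGR1* was at 3.60, 2.99 and 3.94 CPM in DMSO and at 22.6, 13.004 and 20.3 CPM in FAKi. The lowest FAKi library was more than 3 times the highest DMSO library, and the DMSO levels of this day were among the lowest of the gene in the series. The log2 fold change was 2.41 (SE 0.21, edgeR adjusted p = 9.46e-08). *ATF3* was at 24.7, 22.7 and 21.1 CPM in DMSO and at 9.40, 9.20 and 7.75 CPM in FAKi, with no overlap. Its log2 fold change was -1.38 (SE 0.15, edgeR adjusted p = 2.24e-06). Both calls held in every alternative run, from 2.24 to 2.61 for *EGR1* and from -1.46 to -1.30 for *ATF3*.

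*JUN* was at 34.4, 39.5 and 34.4 CPM in DMSO and 27.6, 24.5 and 20.6 CPM in FAKi, a log2 difference of -0.58 (SE 0.13, edgeR adjusted p = 0.00438). *JUNB* was at 14.9, 16.1 and 17.1 CPM in DMSO and 23.8, 27.6 and 18.2 CPM in FAKi, a log2 difference of 0.53 (SE 0.15, edgeR adjusted p = 0.0233). With the length and GC correction *JUNB* was at 0.38 (adjusted p = 0.0566). *FOS* was at 6.66, 6.96 and 6.86 CPM in DMSO and 9.91, 9.68 and 9.23 CPM in FAKi. These groups did not overlap either, and the log2 difference of 0.49 (SE 0.18, edgeR adjusted p = 0.0763) had the opposite sign to that of day 21. In DMSO the *FOS* mean was 9.99 ± 0.32 CPM at day 0 and 6.83 ± 0.15 CPM at day 14 (SD, n = 3), against 9.61 ± 0.35 CPM in FAKi at day 14. For *JUNB* these were 29.2 ± 2.09, 16.0 ± 1.13 and 23.2 ± 4.73 CPM. The part of the lower control level in these differences was not tested. In 5 of the 10 genes the FAKi and DMSO groups of day 14 did not overlap, where this held for 29.0% of all genes tested. *FOSL1* had 0 counts in DMSO day 14 replicate 3, which allows up to 3 counts, and 1.61 and 1.01 CPM in the other two. That library held 0 counts for 1597 of the genes that had 100 counts or more over the series, the most of the 27. The *FOSL1* difference was 0.31 with that library and -0.27 without it.

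At day 3 no gene of the 10 was called, and none of the 22846 genes tested was (0%); DESeq2 called 755 genes and 0 of the 10. At an unadjusted p under 0.05, 5 of the 10 were lower in FAKi, where 14.0% of all genes were, and 1 higher, where 9.83% were. The 5 were *FOSB* at -0.78 (SE 0.33), *FOSL2* at -0.69 (SE 0.24), *IER2* at -0.64 (SE 0.15), *JUND* at -0.55 (SE 0.17) and *JUNB* at -0.42 (SE 0.16) on the log2 scale. The smallest edgeR adjusted p was 0.0972, for *IER2*, at 68.1, 74.8 and 90.6 CPM in DMSO and 50.7, 49.8 and 47.1 CPM in FAKi. In 4 genes, *IER2*, *FOSL2*, *JUNB* and *JUND*, all FAKi libraries were below all DMSO libraries, where 16.6% of genes were. *EGR1* was at 23.1, 9.68 and 11.1 CPM in DMSO and 20.3, 30.5 and 20.9 CPM in FAKi, a log2 difference of 0.73 (SE 0.32). DMSO day 3 replicate 1 was the high control. Without it 2765 of 21745 genes, 12.7%, were called, and of the 10 *EGR1*, higher at 1.22 (edgeR adjusted p = 0.000692). In that fit *FOSB* was at -0.40, *FOSL2* at -0.54, *JUNB* at -0.31, *JUND* at -0.62 and *IER2* at -0.72. The controls left in it, replicates 2 and 3, were both nearest in expression to DMSO day 21 replicate 3. Their mitochondrial shares were 9.59% and 8.61%, against 9.75% in that library and 18.1% in DMSO day 3 replicate 1. Which of the controls better represent day 3 was not tested.

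The genes lower at day 3 include those with the most GC in their counted transcript: *JUND* has 69.9%, *JUNB* 64.9% and *IER2* 61.7%. Over all genes the log2 difference at this day had a median of -0.37 in 2431 genes with at least 60% GC and 0.22 in 6258 genes with under 45%. With a correction for length and GC the difference was 0.04 (SE 0.13) for *JUND* and 0.03 (SE 0.16) for *JUNB*, both smaller than their SE. For *IER2* it was -0.33 (SE 0.11). *FOSB* at -0.62 (SE 0.31), *FOSL2* at -0.76 (SE 0.20) and *EGR1* at 0.86 (SE 0.32) kept their direction. Mitochondrial genes took 18.1%, 9.59% and 8.61% of counts in DMSO and 16.8% to 18.7% in FAKi at day 3.

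**Figure D3:**
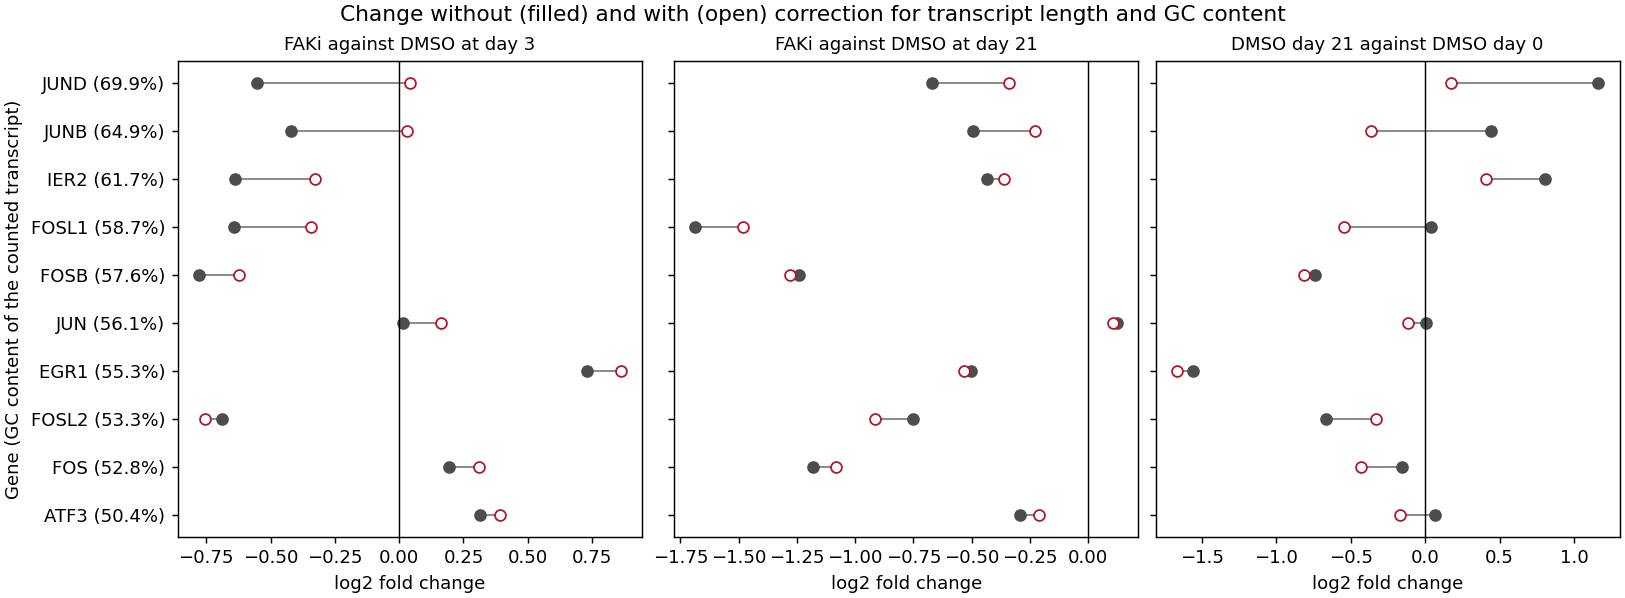
log2 fold change (x axis) of each gene (y axis, ordered by the GC content of its counted transcript) before (filled) and after (open) the length and GC correction of each library, in 3 comparisons. *JUND*, at 69.9% GC, moves from -0.55 to 0.04 at day 3 and from 1.16 to 0.17 between DMSO day 21 and DMSO day 0, while *EGR1*, at 55.3%, stays at -1.56 and -1.67 in the latter.

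At day 7 none of the 10 was called either, nor by DESeq2, and 6 of 22299 genes, 0.0269%, were, all lower. At an unadjusted p under 0.05, 5 of the 10 were lower, where 4.54% of all genes were, and the groups of each of the 5 did not overlap, where 9.11% of all genes were below DMSO without overlap. *FOSB* was at 4.63, 4.40 and 4.34 CPM in DMSO and 1.24, 2.72 and 2.23 CPM in FAKi, a log2 difference of -1.10 (SE 0.29, edgeR adjusted p = 0.316). *IER2* differed by -0.65 (SE 0.14, adjusted p = 0.242), *FOSL1* by -0.94 (SE 0.39), *FOSL2* by -0.57 (SE 0.23) and *JUNB* by -0.41 (SE 0.18). FAKi day 7 replicate 1 stood apart from its group and was nearest to FAKi day 14 replicate 1. It was at 29.8 CPM of *JUN*, against 12.1 and 8.81 CPM in the other FAKi libraries and 11.4 to 14.0 CPM in DMSO. It was also the lowest of the group in *ATF3*, at 10.4 CPM against 22.1 and 25.1 CPM, and the highest in *EGR1*, at 22.2 CPM against 10.5 and 8.46 CPM. Without it 248 of 21797 genes, 1.14%, were called in place of 6, with 0.551% lower. Of the 10, *FOSL1* at -1.48 (edgeR adjusted p = 0.0194) and *EGR1* at -1.05 (edgeR adjusted p = 0.00464) were called lower, and *JUN* went from 0.42 to -0.27.

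Averaged over the 4 days, none of the 10 passed the fold threshold, nor with DESeq2, where 1.89% of 27897 genes did in edgeR. At the adjusted p alone 5 were lower, where 8.70% of all genes were, and 0 higher. *FOSB* was at -0.94 (SE 0.19, edgeR adjusted p = 0.00134), *FOSL2* at -0.50 (SE 0.13, adjusted p = 0.0113), *ATF3* at -0.41 (SE 0.10, adjusted p = 0.00601), *IER2* at -0.40 (SE 0.07, adjusted p = 0.000445) and *JUND* at -0.38 (SE 0.08, adjusted p = 0.00312). *FOSB* was lower on each of the 4 days, and *JUND* was too, though only by 0.003 at day 14. These were 2 of the 10, where 11.0% of all genes were lower on all 4 days. With the length and GC correction *JUND* was at -0.13 (adjusted p = 0.182) and the other four kept an adjusted p of at most 0.05. *EGR1* was at 0.52 (SE 0.19, edgeR adjusted p = 0.0575), *JUN* at -0.01 (SE 0.12).

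The FAKi effect itself differed among the 4 days for 5 of the 10 genes in the treatment by day test, where 10.3% of 27897 genes passed. The edgeR adjusted p was 0.00227 for *EGR1*, 0.00259 for *ATF3*, 0.00318 for *FOS*, 0.0141 for *JUNB* and 0.0270 for *IER2*. *EGR1* went from 2.41 at day 14 to -0.50 at day 21, and *FOS* from 0.49 to -1.18. *JUNB* was below 0 on days 3, 7 and 21 and above 0 on day 14. For all 5 genes the DMSO mean at day 14 was below that at day 0. *FOSB* and *JUND*, the genes lower on each day, did not pass (edgeR adjusted p = 0.757 and 0.164), nor did *FOSL1* (0.357) and *FOSL2* (0.339). *IER2* was at 0.0524 with the length and GC correction. *IER2* also did not pass in 5 of 24 omissions of a single library, FAKi day 3 replicate 3, DMSO day 14 replicates 1 and 2 and FAKi day 14 replicates 1 and 2, with an adjusted p of up to 0.103. Without FAKi day 14 replicate 2 *JUNB* did not pass either, and 6.39% of all genes did.

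The control cultures moved as well. Over days 0 to 21 in DMSO, 8 of the 10 genes changed, where 49.9% of 26193 genes did, and *FOS* (edgeR adjusted p = 0.0626) and *FOSL1* (0.424) did not pass. *FOSL2* passed at an adjusted p of 0.0472 and did not in 11 of 15 omissions of a single library, nor with the replicate block (0.0849) or thinned counts (0.139). These comparisons all share the 3 day 0 libraries. In DMSO, mitochondrial genes took 16.98% to 18.8% of counts at day 0, 21.9% to 26.97% at day 14 and 5.49% to 9.75% at day 21. The summed epithelial markers given above did not overlap between these days either, and the part of either was not tested. At day 14, *EGR1* was called 5.18-fold and *FOSB* 2.70-fold lower than at day 0, where 3.32% of genes were called lower. *EGR1* was at 15.7, 20.9 and 18.1 CPM at day 0 and at 3.60, 2.99 and 3.94 CPM at day 14, a log2 fold change of -2.37 (SE 0.36, edgeR adjusted p = 0.000374), and at day 21 the change from day 0 was -1.56 (SE 0.35, adjusted p = 0.00247), where 8.66% of genes were called lower. In FAKi the mean at day 14 was 18.7 ± 5.03 CPM (SD, n = 3), near the 18.2 ± 2.65 CPM of day 0 in DMSO, and at day 21 it was 4.29 ± 1.49 CPM. The FAKi libraries of day 14 overlapped those of day 0, and the DMSO libraries of day 14, which both comparisons share, were below all of them.

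*JUN* had a different course. At day 7 it was at 12.7, 11.4 and 14.0 CPM in DMSO against 31.6, 28.9 and 28.9 CPM at day 0, a log2 fold change of -1.25 (SE 0.12, edgeR adjusted p = 0.000229), where 0.0458% of genes were called lower. It was back at 34.4 to 39.5 CPM by day 14. All but 1 of the 6 libraries of day 7, the FAKi library that stood apart, were at or below 14.0 CPM, and no library of another day was below 20.6 CPM. At day 3 none of the 10 was called against day 0 in edgeR or DESeq2 (0% of genes in edgeR), with 3 at an unadjusted p under 0.05, where 10.1% of genes were.

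*JUND* was called higher in DMSO at day 21 than at day 0, at 338, 337 and 224 against 143, 136 and 125 CPM, where 10.6% of genes were called higher. The log2 fold change was 1.16 (SE 0.17, edgeR adjusted p = 0.000396). *IER2* was higher by 0.80 (SE 0.14, adjusted p = 0.000577) and *JUNB* by 0.44 (SE 0.15, adjusted p = 0.0303), both under the fold threshold. Genes rich in GC moved the same way between these days, with a median of 0.53 for those with at least 60% GC against -0.32 for those with under 45%. With the length and GC correction *JUND* was at 0.17 (adjusted p = 0.209) and *IER2* at 0.41 (adjusted p = 0.0077), and *JUNB* turned to -0.37 (adjusted p = 0.0439). *EGR1* was at -1.67 (adjusted p = 0.00221). Without DMSO day 21 replicate 3, where 27.4% of genes were called, *EGR1* was at -2.14 and *JUND* at 1.26, and *FOSL2* was called lower at -1.06 (edgeR adjusted p = 0.00139). At DMSO day 14 *JUND*, *IER2* and *JUNB* were lower than at day 0, at -0.90, -0.79 and -0.86 (edgeR adjusted p = 0.0019, 0.00101 and 0.00131). With the length and GC correction they were at -0.58, -0.61 and -0.63 (adjusted p = 0.00097, 0.00097 and 0.00357). At the adjusted p alone 8 of the 10 genes passed there, as did 4029 of 26193 genes.

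Genes with which the 10 act or are switched on were counted in lists. At an unadjusted p under 0.05 stood 23.8%, 8.77%, 24.6% and 32.6% of all genes on days 3, 7, 14 and 21. Among the integrated stress response genes, which ATF4 drives and to which *ATF3* is known to belong, 10 of 11 were called lower at day 14, with a median log2 difference of -1.74 against -0.01 over all genes tested and 1.04% called lower. *ATF4*, the pathway's transcription factor, differed by -1.74 (SE 0.09, edgeR adjusted p = 6.26e-11) and was at 978 CPM in DMSO and 292 CPM in FAKi. *ASNS*, asparagine synthetase, was at 168 CPM in DMSO and 12.3 CPM in FAKi, a log2 fold change of -3.78 (SE 0.12). *PSAT1*, an enzyme of serine synthesis, *CHAC1*, which degrades glutathione, *DDIT4*, an inhibitor of mTORC1, and *DDIT3*, which encodes CHOP, changed by -2.17, -2.48, -2.25 and -1.41. At day 21 only *GDF15* at -1.66 and *ASNS* at -1.11 were called, both lower, and the list's median was -0.03. *ATF3* was at -1.38 on day 14 and -0.29 on day 21. On days 3 and 7 none of the 11 was called, with 4 and 3 at an unadjusted p under 0.05.

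**Figure D4:**
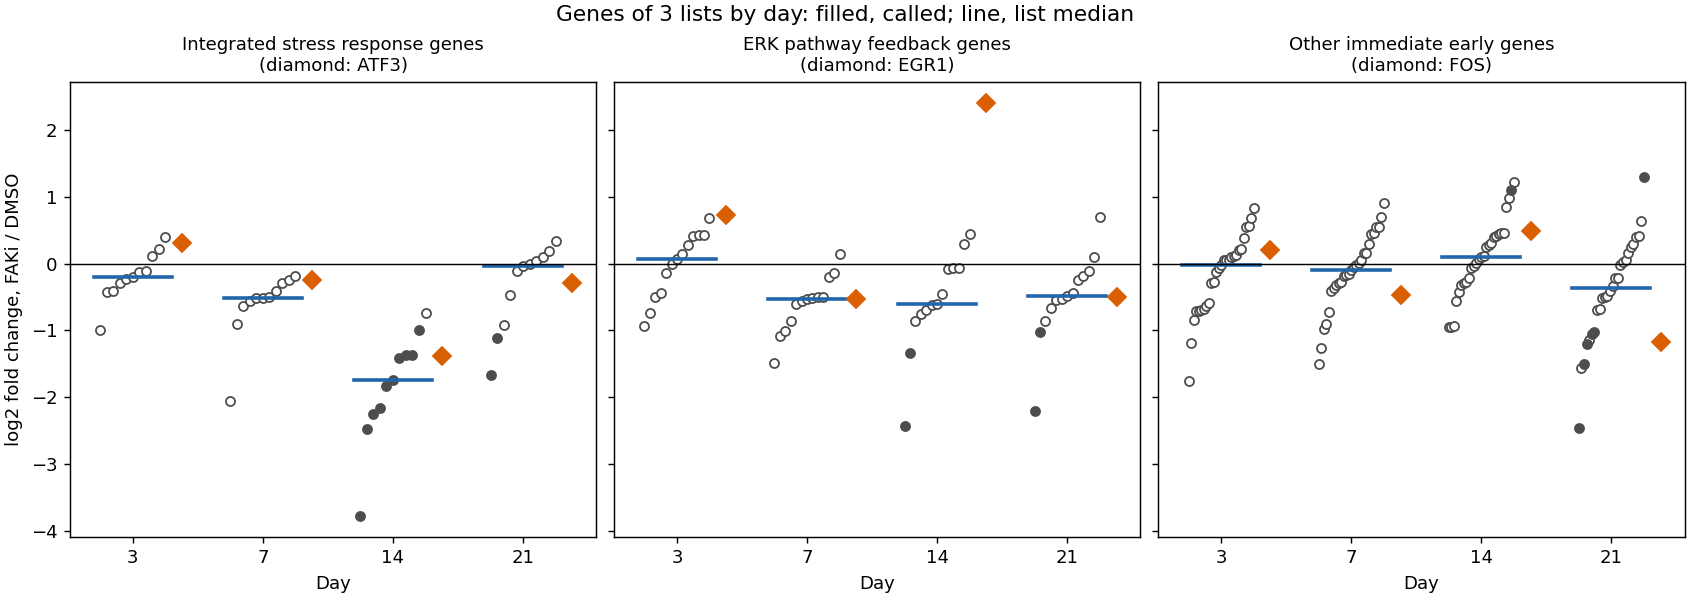
log2 fold change of FAKi over DMSO (y axis) for the genes of 3 lists on days 3, 7, 14 and 21 (x axis); filled points were called, the blue line is the list median and the orange diamond is *ATF3*, *EGR1* or *FOS*. The stress response median is at -1.74 on day 14 beside *ATF3* at -1.38, while *EGR1* at 2.41 lies above every ERK feedback gene on that day.

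*EGR1* is a known target of the ERK pathway. Of 13 feedback genes of that pathway, 2 were called lower and 0 higher at day 14, where 1.04% and 0.614% of all genes were, and the list's median was -0.60. The 2 were *ETV4* at -2.43 (SE 0.11, edgeR adjusted p = 5.43e-12) and *ETV5* at -1.34 (SE 0.10, adjusted p = 1.20e-08), both transcription factors induced by ERK. At day 21 the same 2 were called lower, *ETV4* at -2.20 (SE 0.14) and *ETV5* at -1.02 (SE 0.14), and the median was -0.48. On days 3 and 7 none was called, with 4 and 7 of 13 at an unadjusted p under 0.05, against 23.8% and 8.77% of all genes. The same count was 10 and 7 of 13 on days 14 and 21, against 24.6% and 32.6% of all genes. Of 17 kinases and factors upstream of AP-1, none was called on any day by edgeR, with 1, 0, 6 and 3 at an unadjusted p under 0.05 on days 3, 7, 14 and 21.

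Of the other immediate early genes, 6 of 26 tested were called at day 21, 5 lower and 1 higher, where 2.71% and 2.58% of all genes were, with a list median of -0.37 against 0.01 over all genes. *NR4A1*, an orphan nuclear receptor, was at 256 CPM in DMSO and 121 CPM in FAKi, a log2 fold change of -1.06 (SE 0.12, edgeR adjusted p = 0.00433). *CCN2*, a secreted matricellular protein also known as a YAP target, changed by -2.46 (SE 0.35), *GADD45B* by -1.20 (SE 0.20), *ZFP36L1*, an mRNA decay factor, by -1.03 (SE 0.20) and *ARC* by -1.50 (SE 0.36). *NFKBIZ*, a nuclear regulator of NF-κB, was higher by 1.29 (SE 0.26). At day 14 *CCN1*, a relative of *CCN2*, was the only one of 27 called, higher by 1.10 (SE 0.19), and none was called on days 3 and 7, with 9 and 10 of 27 at an unadjusted p under 0.05, against 23.8% and 8.77% of all genes. Over the 4 days *ARC* was called lower, at -1.39 (SE 0.33).

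Among 13 tested genes of other proteins that can pair with AP-1 members, *BATF3* at -1.97 (SE 0.36) and *MAFF* at -1.01 (SE 0.13) were called lower at day 21. *MAF* at 1.01 (SE 0.13) was called higher. Of all genes 2.71% were called lower and 2.58% higher, and the list's median log2 difference was 0.13. At day 14 *JDP2*, a repressor that pairs with JUN proteins, was lower, at -1.58 (SE 0.13, edgeR adjusted p = 2.94e-08), and none was called on days 3 and 7, with 5 and 3 at an unadjusted p under 0.05. Of 22 genes described as AP-1 targets, 12 to 13 could be tested on a given day. *VEGFA*, an angiogenic factor, was the only 1 called at day 14, lower at -1.64 (SE 0.10), where 1.04% of all genes were called lower. *HBEGF*, an EGF receptor ligand, was the only 1 at day 21, lower at -1.01 (SE 0.26), where 2.71% were. Over the 4 days *LIF*, a cytokine, was lower, at -1.42 (SE 0.39), and *IL11* was called lower at group means of at most 0.213 CPM, with 0 counts in the FAKi libraries of days 3, 7 and 14.

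Over the 27 libraries, the 10 genes did not share 1 pattern. The log2 levels of *JUND* and *IER2* had a Pearson r of 0.951, *JUNB* and *IER2* 0.860, *JUNB* and *JUND* 0.801, *FOS* and *EGR1* 0.704, and *FOSB* and *FOSL2* 0.651, while *JUN* had no r above 0.212 with another of the 10. The 3 genes of the first pairs are those with the most GC. Of 16981 genes, those most alike to *ATF3* were *GPT2* (r = 0.953), *PSPH* (0.945) and *STC2* (0.940), those most alike to *EGR1* were *VPS37C* (0.893), *SMURF1* (0.884) and *RNF4* (0.884), and those most alike to *FOS* were *GAS7* (0.879), *MUC7* (0.875) and *YTHDF1* (0.865). *JUND* was most like *TSPO* (0.968), and *JUNB* most like *LTBP3* (0.937). *IER2* was most like ENSG00000267598 (0.965), a gene that overlaps its exons on the opposite strand. *FOSB* was nearest to *FGFRL1* (0.912), *FOSL1* to *PHLDB3* (0.837), *FOSL2* to *SRPK1* (0.831) and *JUN* to *ZSCAN9* (0.794). The points of these correlations share libraries, treatment, day and base composition, and no p is given.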

How the data were processed

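Bulk mRNA of 92.1 cells was sequenced from 27 libraries in 9 groups of 3, with separate platings and 3 biological replicates per the study's methods. The authors prepared libraries with a stranded mRNA kit, trimmed reads with Trim Galore, checked them with FastQC 0.11.8, aligned them to hg38 with STAR 2.5.3a and counted exon reads per gene with HOMER on GENCODE 39, keeping 1 transcript per gene. The deposited values are raw counts per gene.

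Counts were tested with edgeR 4.0.16 (glmQLFit, glmQLFTest, TMM) in R 4.3.3 on genes with at least 20 counts in the libraries of a fit, in place of the DESeq2 test that the study's methods name. Daily comparisons used the 6 libraries of the day, the mean and the treatment by day test 24 libraries, and the DMSO course 15. P-values were adjusted by Benjamini-Hochberg over all genes tested. A gene was called when its adjusted p was 0.05 or less and its log2 fold change exceeded 1 in absolute size, except that the treatment by day and DMSO course tests used the adjusted p alone. With 3 against 3 libraries an exact permutation test cannot go below 0.1, so none was used. GC content came from GENCODE 44 transcripts, with a value for 99.55% of those counted, and the correction was a loess fit (span 0.5) on GC and length in each library. Promoters are RefSeq windows on GRCh38.p14. Motif shares are over 35116 windows. Pearson r used log2 CPM with a prior count of 2. Fits were also run on simulated counts. Those held no library that stands apart, no GC trend and no pairing of replicates, so they do not bear on these features.

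Same-numbered DMSO and FAKi libraries deviated together from their group means at day 21 (r = 0.443, 0.128 and 0.658 over 16981 genes) and not on other days, where at least 1 of 3 was below 0.1. Scaling, filters, DESeq2 1.42.0, a replicate block, thinned counts, single libraries left out, the GC correction and the omission of 3 libraries were the alternatives; the GC correction and that omission were chosen after seeing the data. The 10 genes and the lists were chosen with earlier results of these data known. Named genes are the 10, *PTK2*, up to 6 called genes per list and comparison by smallest p, and the 3 genes most like each of the 10, of which some are named. A called gene of the lists is not reported here. The markers fixed were 8 melanocyte, 6 fibroblast, 6 epithelial, 5 immune and 4 endothelial genes; *KRT5*, *KRT18* and *HOOK2* were named after their values were seen.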

Additional observations from a re-analysis of the deposited data

Results flagged for a closer look

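The effect of FAKi differed among days 3, 7, 14 and 21 in 5 of the 10 genes by the treatment by day test of edgeR (24 libraries, Benjamini-Hochberg over all genes). The adjusted p was 0.00318 for *FOS*, 0.0141 for *JUNB*, 0.00259 for *ATF3*, 0.00227 for *EGR1* and 0.0270 for *IER2*. *FOS* was lower in 3 of 3 FAKi libraries at day 21 and higher in 3 of 3 at day 14, and *EGR1* was higher in 3 of 3 at day 14. *IER2* did not pass in 5 of 24 omissions of a single library.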

How the results depend on the processing

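Counts of called genes among the 10 were unchanged or within 1.5 times under RLE and upper quartile scaling, 2 other count filters, DESeq2, all 27 libraries in a single fit and thinned counts. Without a count filter 1 gene, *FOSB*, was called at day 7. With the adjusted p alone the counts were 4 at day 14 and 5 for the mean over 4 days. Of all genes 12.4% and 15.7% passed there. Against day 0 they were 8 for DMSO day 14 and 5 for DMSO day 21, where 15.4% and 38.4% of all genes passed. With the length and GC correction, *EGR1*, *IER2* and *JUNB* passed the adjusted p in DMSO day 21 against day 0. Of these, only *EGR1* also passed the fold threshold. With single libraries left out the counts ran from 0 to 1 at day 3, 0 to 2 at day 7, 0 to 3 at day 21, 0 to 1 for the mean and 3 to 6 for the change among days; the cause was not tested, apart from the smaller number of libraries.

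Reversals touched only differences that were not called, that is, that did not pass both the adjusted p and the fold threshold. At day 3 *JUN* was at -0.0043 with upper quartile scaling and -0.0162 with no filter, and *JUNB* and *JUND* at 0.0299 and 0.0430 with the GC correction. At day 14 *JUND* was at 0.000687 with no filter and 0.000866 in a single fit, *FOSL2* at -0.0940 with thinned counts and -0.0351 with the GC correction, and *IER2* at -0.0320 with the latter. *JUNB* in DMSO day 21 against day 0 passed the adjusted p in both directions. It was at 0.440 in the main fit (edgeR adjusted p = 0.0303) and at -0.366 with the GC correction (adjusted p = 0.0439). With single libraries left out the ranges were -0.00838 to 0.0468 for *JUN* at day 3, -0.267 to 0.726 for *JUN* and -0.479 to 0.0485 for *ATF3* at day 7, -0.273 to 1.09 for *FOSL1*, -0.131 to 0.201 for *FOSL2* and -0.124 to 0.130 for *JUND* at day 14, -0.809 to 0.0125 for *EGR1* at day 21 and -0.181 to 0.0670 for *JUN* over the 4 days. The cause of these was not tested.

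With the replicate block, which pairs libraries at day 21, the same 3 genes were called there, with edgeR adjusted p of 0.00106 for *FOS*, 0.0110 for *FOSB* and 0.0065 for *FOSL1*, and with the block and the GC correction 0.00111, 0.0104 and 0.0123. The counts under the block were 0, 0, 2 and 3 on days 3, 7, 14 and 21, 0 for the mean and 5 for the change among days, so it changed no other of these calls; over the DMSO days 7 in place of 8 passed. Without the 3 libraries that stood apart, 7 in place of 5 passed the test of change among days, with *JUN* and *JUND* added, while over all genes 38.4% in place of 10.3% passed. Over all genes, DESeq2 called 755 in place of 0 at day 3 and 102 in place of 6 at day 7. *FOSL1*, *FOSB*, *FOSL2*, *FOS* and *EGR1* had under 100 counts in at least 1 FAKi library of day 21, which limits their precision. In these libraries *FOSL1* had at most 22 and *FOSB* at most 46 counts.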
